A study of Mus musculus with 5 samples.

Results

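The nuclei described here are hepatocyte nuclei of livers with metabolic dysfunction-associated steatohepatitis (MASH) that held RNA of Themis, a gene best known from T cells. They were selected on their counts. A nucleus of a MASH library was taken as a hepatocyte nucleus when it had at least 2000 unique molecular identifiers (UMIs, each standing for 1 captured RNA molecule), under 10% mitochondrial UMIs, at least 1 UMI of the hepatocyte factor Hnf4a and none of Ptprc, Lck, Cd3e, Ptprb, Pkhd1 and Col3a1, which mark other cell types. Of 2723 such nuclei, 440 had at least 2 Themis UMIs and are called Themis-positive (217 of 1417 in MASH replicate 1 and 223 of 1306 in MASH replicate 2), 523 had 1 and 1760 had none. The Themis counts chose the nuclei, so every Themis value below is a description without a test.

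Single-nucleus RNA-seq was done on livers of wild-type C57BL6/J male mice, 3 libraries from mice on regular chow and 2 from mice on a MASH diet, with 2% cholesterol and with fat and fructose at 40 and 20 kcal%, given for 5 months from an age of 10 to 12 weeks. The mice carried no transgene or deletion, and the diet is the only difference between the groups that the labels give. How many mice went into a library is not given in the labels. P-values over the 2 MASH libraries therefore measure only how far differences within a library varied between these libraries. The test partly pools this spread over genes. The 5 libraries held 57080 barcodes and 18198 nuclei met the hepatocyte rule. Hepatocyte nuclei had a median of 4644 and 4936 UMIs in the MASH libraries and 3844 to 4809 in chow, with a median mitochondrial share of 2.47% in MASH replicate 1 and 0.384% in MASH replicate 2. Pairs of libraries shared 23 to 48 barcodes, and no barcode was a Themis-positive nucleus in both MASH libraries.

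THEMIS is an adaptor protein that binds GRB2 and the phosphatases SHP1 and SHP2 and sets the strength of T cell receptor signalling during thymocyte selection. Liver lobules are zoned: hepatocytes around the central vein make glutamine and carry much of the cytochrome P450 metabolism, while those around the portal tract carry urea synthesis, gluconeogenesis and amino acid breakdown. In steatohepatitis hepatocytes fill with lipid droplets, whose surface is covered by perilipins, CIDE proteins and enzymes such as HSD17B13. Themis-positive nuclei are described below by these functions.

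Themis (ENSMUSG00000049109) lies on chromosome 10 of GRCm38, from 28668360 to 28883818 on the forward strand. The 250 bases before its start and those of 3 lipid droplet genes that differed between Themis-positive and other nuclei (Cidec and Plin4 higher, Hsd17b13 lower) are shown so that their starts can be compared. They come from RefSeq (GRCm38.p6), in which 17 of the 25 genes wanted had an entry on the strand of transcription, and each runs 5′ to 3′ up to the base before the start. Capitals mark matches, on either strand, to the letters of 6 motifs. They were the TATA box (spelled TATAAA), the AP-1 site (spelled TGACTCA), the E-box (spelled CACGTG), the TCF site (spelled CTTTGA), the GC box (spelled GGGCGG) and the core site of nuclear receptors (spelled AGGTCA), none of which contains another.
Themis, chr10:28668110-28668359: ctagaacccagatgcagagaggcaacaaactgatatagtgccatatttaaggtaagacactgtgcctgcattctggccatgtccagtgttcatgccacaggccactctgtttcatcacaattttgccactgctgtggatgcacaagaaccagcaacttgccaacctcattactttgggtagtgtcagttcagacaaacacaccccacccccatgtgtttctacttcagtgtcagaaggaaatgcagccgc
Cidec, chr6:113435761-113436010, reverse strand: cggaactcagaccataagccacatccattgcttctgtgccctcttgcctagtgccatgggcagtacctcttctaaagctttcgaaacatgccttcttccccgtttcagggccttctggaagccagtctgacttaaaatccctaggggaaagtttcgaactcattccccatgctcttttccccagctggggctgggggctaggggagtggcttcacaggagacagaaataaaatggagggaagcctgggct
Plin4, chr17:56109783-56110032, reverse strand: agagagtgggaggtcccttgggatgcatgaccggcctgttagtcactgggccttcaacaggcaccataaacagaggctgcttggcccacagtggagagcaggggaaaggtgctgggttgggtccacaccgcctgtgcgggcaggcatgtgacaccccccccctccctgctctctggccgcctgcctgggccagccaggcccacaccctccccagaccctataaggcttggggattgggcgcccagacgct
Hsd17b13, chr5:103977389-103977638, reverse strand: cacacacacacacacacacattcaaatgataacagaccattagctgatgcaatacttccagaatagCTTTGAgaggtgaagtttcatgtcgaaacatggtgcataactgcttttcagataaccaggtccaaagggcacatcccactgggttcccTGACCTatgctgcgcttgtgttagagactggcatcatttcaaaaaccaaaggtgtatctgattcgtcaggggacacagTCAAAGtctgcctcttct

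The Themis, Cidec and Plin4 windows held none of these letter strings. The Hsd17b13 window held the TCF letters at bases 67 and 233 and the nuclear receptor core site at base 155, counted from its 5′ end. Over 27025 promoters of this length, 14.05% held the TCF letters, 13.8% the core site, 12.97% the TATA box, 4.43% the AP-1 site, 6.05% the E-box and 32.9% the GC box. A match is a description of letters only.

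Themis RNA was found mainly in hepatocyte nuclei of the MASH libraries. Its level was 120.0 CPM (UMIs of a gene scaled to the total of the nuclei summed) in both MASH replicate 1 and MASH replicate 2, against 3.22, 0.770 and 3.87 CPM in chow replicates 1, 2 and 3. The share of hepatocyte nuclei with at least 2 Themis UMIs was 15.3% in MASH replicate 1 (95% interval 13.5 to 17.3, exact Clopper-Pearson, counting error only) and 17.1% in MASH replicate 2 (15.1 to 19.2). In chow it was 0.179% (6 of 3347 nuclei), 0 of 5870 nuclei (upper end of the exact interval 0.0628%, and 0.0511% by the limit of 3 counts), and 0.352% (22 of 6258). The highest count in 1 nucleus was 8 and 10 Themis UMIs in the MASH libraries and 3, 1 and 5 in chow.

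The threshold of 2 UMIs cut through a continuous range. Just outside it lay 269 and 254 nuclei with 1 Themis UMI, and just inside it 131 and 117 nuclei with 2. A further 45 and 59 nuclei had 3 UMIs, and 41 and 47 had 4 or more. Deeper nuclei crossed the threshold more often: the median total was 4271 and 4257 UMIs in nuclei without Themis, 6039 and 6651 in those with 2 Themis UMIs and 7174 and 8254 in those with 4 or more. In nuclei of 2000 to 3000 UMIs the share with at least 2 was 2.36% and 1.99%, and in those of 6500 or more it was 34.6% and 35.04%. After each nucleus was thinned to 2000 UMIs the share was 3.11% in MASH replicate 1 and 3.29% in MASH replicate 2. Counts of 0 and 1 therefore do not show that a nucleus lacked Themis RNA.

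The nuclei carried RNA of hepatocyte markers, Cps1 less often than the others, and T cell markers were near 0 in them. Alb had a UMI in 100% and 99.1% of Themis-positive nuclei, Apoa1 in 98.6% and 99.6%, Fgb in 94.01% and 93.7% and Cyp2e1 in 92.2% and 99.1%. Ttr had a UMI in 94.5% and 96.9%, and Cps1, a periportal gene, in 50.7% and 56.5%. Nuclei with macrophage markers and no Hnf4a UMI had 4613 and 1693 CPM of Alb, against 1630.0 and 994.7 in Themis-positive nuclei, so Alb does not separate the types here. Cyp2e1 was at 1300.3 and 2062 CPM in Themis-positive nuclei and at 590.3 and 562.9 CPM in those macrophage-marked nuclei. Cps1 was at 219.6 and 287.0 CPM in Themis-positive and at 173.9 and 159.2 CPM in macrophage-marked nuclei. Over the 24 T cell markers counted, the 184 depth-matched Themis-positive nuclei of MASH replicate 1 held 13 UMIs and their matched nuclei without Themis held 12. In MASH replicate 2 the 182 matched Themis-positive nuclei held 14 and their partners 11. Cd2, Cd4, Cd28, Lef1, Bcl11b and Gata3 were at 0 in the Themis-positive nuclei of both libraries, and all of these but Cd4 also in the matched nuclei of both. In the 2 libraries 8 and 9 of the 24 markers had a UMI in Themis-positive and 9 and 5 in matched nuclei. Lck and Cd3e were at 0 by the rule.

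Themis UMIs were rare in nuclei of other cell types of the same libraries. Nuclei with at least 500 UMIs, no Hnf4a and at least 1% of their UMIs in 3 or more markers of macrophages, stellate cells, endothelial cells or cholangiocytes had at least 1 Themis UMI in 0 to 2.34% of cases in MASH, at median totals of 845 to 1312.0 UMIs. No such nucleus had 2. Hepatocyte nuclei thinned to 2000 UMIs had at least 1 in 17.1% and 16.8%. T cells did not reach 20 nuclei under this rule in any library and were not analysed here.

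Themis-positive nuclei leaned towards the central vein. Each nucleus was classed by 3 pericentral genes (Glul, Oat and Slc1a2) against 3 periportal genes (Cyp2f2, Hal and Sds): pericentral-leaning where the first had more UMIs, periportal-leaning where they had fewer, and otherwise tied. The share with at least 2 Themis UMIs was 24.5% (20.5 to 28.9) of 416 pericentral-leaning nuclei, 17.9% (13.8 to 22.8) of 301 tied nuclei and 8.71% (6.73 to 11.05) of 700 periportal-leaning nuclei in MASH replicate 1. In MASH replicate 2 the shares were 29.3% (25.1 to 33.9) of 433, 14.2% (10.9 to 18.1) of 394 and 8.35% (6.03 to 11.2) of 479. These intervals cover counting error within 1 library only, and no test was made between the classes. The same order held after thinning to 2000 UMIs, at 5.77%, 2.66% and 1.71% in MASH replicate 1 and 6.0%, 3.05% and 1.04% in MASH replicate 2. Of the 28 chow nuclei with at least 2 Themis UMIs, 20 were among 3486 pericentral-leaning and 6 among 10167 periportal-leaning nuclei.

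**Figure D1:**
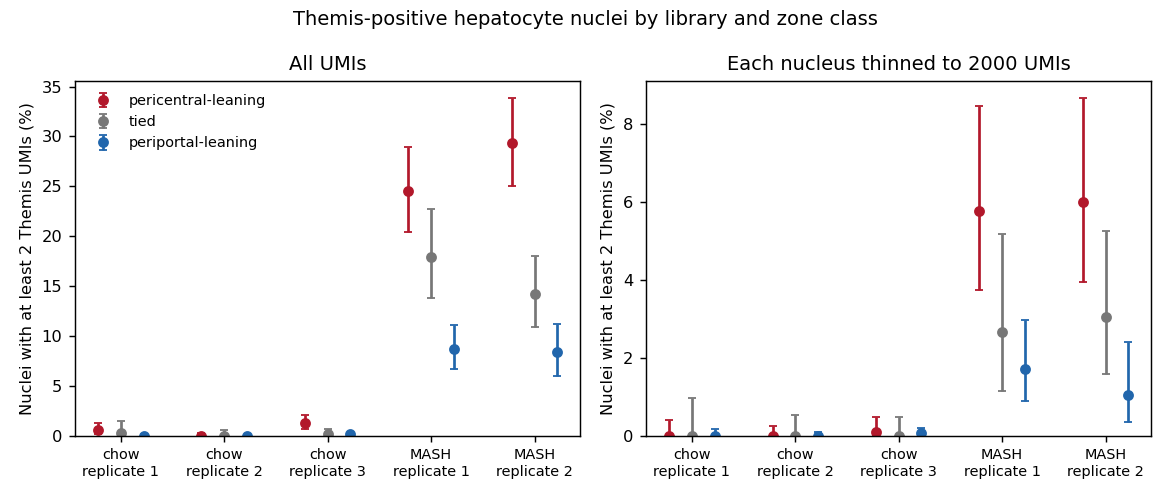
Share of hepatocyte nuclei with at least 2 Themis UMIs (%, vertical axis) in the 5 libraries (horizontal axis) by zone class, with all UMIs (left) and after thinning each nucleus to 2000 UMIs (right). Points are shares and bars are exact 95% binomial intervals for counting error. In both MASH libraries pericentral-leaning nuclei lie above periportal-leaning nuclei, and all chow shares stay at or below 1.28%.

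The main comparison asked which other RNAs accompanied Themis. Each Themis-positive nucleus was paired with a nucleus of the same library and zone class that had no Themis UMI and a total within 5% of its own, which was possible for 184 nuclei of MASH replicate 1 and 182 of MASH replicate 2 (366 of 440). The other 74 had no partner and were left out of the test, and the median total over all Themis-positive nuclei, matched or not, was 6421 and 6986 UMIs. Median totals were then 5974 and 5955 UMIs in MASH replicate 1 and 6422 and 6449 in MASH replicate 2, and the median number of genes detected was 2587 and 2580.0 in the first and 2793 and 2744 in the second library. The median mitochondrial share was 1.81% in Themis-positive and 2.23% in matched nuclei of MASH replicate 1 and 0.284% and 0.304% in MASH replicate 2. Counts were summed per library and Themis status, and the 4 sums were tested with edgeR's quasi-likelihood test with the library as a block. CPM of matched nuclei, unlike the other levels, were scaled to library sizes adjusted by TMM, edgeR's normalization.

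In this comparison 21 genes were higher and 20 lower in Themis-positive nuclei of 9667 tested, called at an adjusted p under 0.05 with the same sign in both libraries. The genes of the selection rule were left out. Over all genes, 0.217% were called higher and 0.207% lower, and the median log2 fold change was -0.0045. Cyp2c38, Cidec and Plin4 were among those higher and Hamp, Cps1 and Hsd17b13 among those lower. The test rested on 1 residual degree of freedom. DESeq2 called none of these genes, and with it 63 of 9667 had an unadjusted p under 0.05, against 853 (8.82%) with edgeR. List counts at that p, given below, stand beside this share. Another random order of the pairing called 12, of which 10 were among the 41. No gene of the 41 changed direction in any of the 17 alternatives in which it was tested. That is no independent check of direction, since the call had required the same sign in both libraries. All alternatives reused nuclei of these libraries, and several changed only the tool, the filter or the scaling of the same sums.

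**Figure D2:**
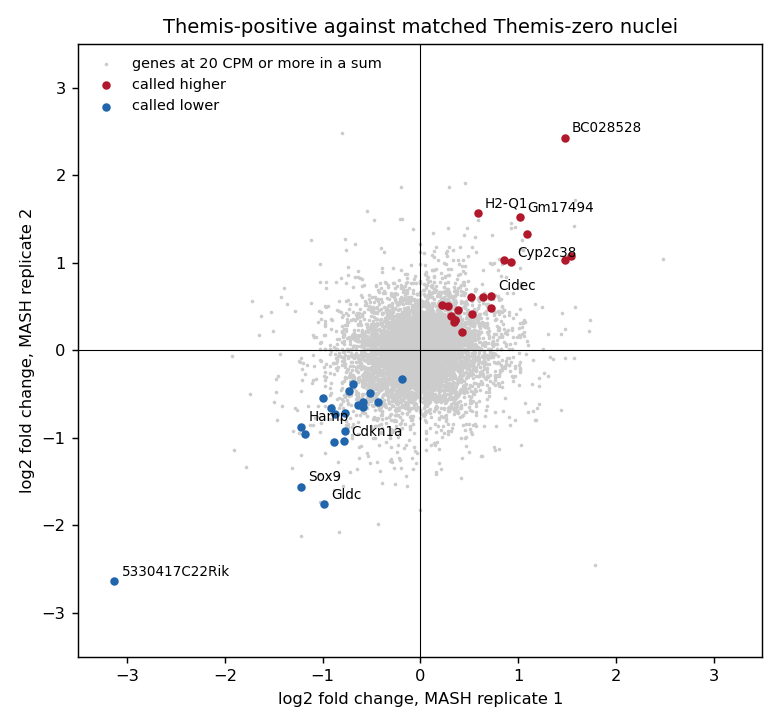
Log2 fold change of Themis-positive against matched Themis-zero nuclei in MASH replicate 1 (horizontal axis) and MASH replicate 2 (vertical axis), after adding 0.5 CPM to both levels. Grey points are genes at 20 CPM or more in a sum, red points the 21 genes called higher and blue points the 20 called lower. Of the called genes BC028528 has the highest fitted value (1.99) and 5330417C22Rik the lowest (-3.16). All called genes lie on the same side of 0 in both libraries, which the call required.

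The lipid droplet genes split. Of 20 listed, 18 were tested, 2 were called higher and 1 lower, and their median log2 fold change was 0.12 (0.16 in MASH replicate 1 and 0.0014 in MASH replicate 2). Cidec, which fuses lipid droplets into larger ones, was at 116 CPM in Themis-positive and 70.1 in matched nuclei of MASH replicate 1, and at 129.8 and 84.2 in MASH replicate 2. It rose by 0.67 ± 0.14 on the log2 scale (SE, adjusted p = 0.0332). Plin4, a perilipin of the droplet coat, was at 362 against 219.5 CPM and at 479 against 342 CPM, a log2 fold change of 0.59 ± 0.10 (adjusted p = 0.00952). Both were higher in Themis-positive nuclei of each library, which the call required. More of those nuclei had a UMI: 45.1% against 28.8% and 49.5% against 37.9% for Cidec, and 70.7% against 53.8% and 89.6% against 72% for Plin4.

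Hsd17b13, an enzyme bound to the droplet surface, went the other way. It was at 176 CPM in Themis-positive and 323 in matched nuclei of MASH replicate 1, and at 182 and 301 in MASH replicate 2 (log2 fold change -0.80 ± 0.10, adjusted p = 0.000819). The remaining droplet genes did not pass the test, with values from -0.42 for Plin5 to 0.46 for Fitm1. Plin2, the main perilipin of fatty liver, had a log2 fold change of 0.13 ± 0.10 (adjusted p = 0.809) and Pnpla2, the droplet triglyceride lipase, of 0.39 ± 0.23 (adjusted p = 0.679). Lpin2, which makes diacylglycerol for triglyceride synthesis, rose by 0.35 ± 0.07 (adjusted p = 0.0196).

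Of 24 targets of the PPAR receptors, 20 were tested, 1 was called higher (Cidec) and none lower, and the median was 0.24, against -0.0045 over all genes. It was 0.11 with the finer zone steps described below, and 0.06 in pericentral-leaning and 0.47 in periportal-leaning nuclei. Fabp4, a fatty acid carrier, had 1.02 ± 0.32 (adjusted p = 0.282) and Slc25a20, the mitochondrial carnitine carrier, 0.43 ± 0.10 (adjusted p = 0.0933). Acaa1b, a peroxisomal thiolase, was at 4626 against 3437 CPM in MASH replicate 1 and 2804 against 2417 in MASH replicate 2 and rose by 0.32 ± 0.06 (adjusted p = 0.0279). Aldh3a2, which oxidises fatty aldehydes, rose by 0.47 ± 0.09 (adjusted p = 0.0175). No gene of the lists for fatty acid oxidation (25 of 25 tested, median -0.01) and de novo lipogenesis (17 of 17, median 0.05) was called. Each held 4 genes at an unadjusted p under 0.05 with edgeR, and DESeq2 called none. Both lists were taken from the study, which filtered them by expression in its own nuclei, so they are not independent of these samples.

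Some of the higher genes encode cytochrome P450 enzymes, a receptor that controls them or transporters of bile and drugs. This grouping was made after their values were seen, and the share of such genes over all genes tested was not counted. Cyp2e1 and Slco1b2 in it are also on the pericentral list described below. Cyp2c38 varied with zone too. In matched nuclei without Themis it was at 137 CPM in pericentral-leaning and 15.9 in periportal-leaning nuclei of MASH replicate 1. The same levels were 164 and 28.6 in MASH replicate 2. Its log2 fold change was 0.94 within pericentral-leaning and 1.68 within periportal-leaning nuclei. Zone markers stayed unequal after pairing, as described below. Cyp2c38, a cytochrome P450, was at 147 CPM in Themis-positive and 77.4 in matched nuclei of MASH replicate 1, and at 224 and 111 in MASH replicate 2 (log2 fold change 0.98 ± 0.12, adjusted p = 0.000453). Nr1i3, the xenobiotic receptor CAR, was at 1301 against 1115 and 1623 against 1129.6 CPM (0.38 ± 0.08, adjusted p = 0.0398). It was the only called gene among 19 tested hepatocyte transcription factors. Cyp2e1, the ethanol-inducible P450, was at 1371 against 1125 and 2121 against 1489 CPM (0.40 ± 0.07, adjusted p = 0.016), and Cyp3a25 rose by 0.35 ± 0.06 (adjusted p = 0.016). Of 16 tested bile acid genes 2 were called higher and none lower: Slco1b2, an uptake transporter (0.35 ± 0.06, adjusted p = 0.0117), and Abcb4, which moves phosphatidylcholine into bile (0.33 ± 0.07, adjusted p = 0.0398). Cyp2c38 and Cyp3a25 belong to families of similar genes, and reads of close copies may have been divided between them.

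Of 20 tested genes of the periportal list, 4 were called lower and none higher. The list holds Hamp, which the study gave as a marker of midlobular hepatocytes. Cps1, which starts the urea cycle, was at 224 CPM in Themis-positive and 349 in matched nuclei of MASH replicate 1, and at 300.3 and 465 in MASH replicate 2 (log2 fold change -0.63 ± 0.10, adjusted p = 0.00406). Arg1, which releases urea in its last step, was at 259.8 against 391 and 373 against 585 CPM (-0.62 ± 0.09, adjusted p = 0.00322). Hamp, the iron hormone hepcidin, was at 94.5 against 220.4 and 106 against 194 CPM (-1.04 ± 0.12, adjusted p = 0.000433). All 3 lay below the matched level in both libraries, which the call required. Gldc, of the glycine cleavage system, had -1.39 ± 0.25 (adjusted p = 0.0146). Outside that list, Sfxn1, a mitochondrial serine carrier, had -0.74 ± 0.10 (adjusted p = 0.00228) and Uroc1, of histidine breakdown, -0.60 ± 0.10 (adjusted p = 0.00952).

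Pairing within a zone class did not make the zone markers equal. Mean periportal rule UMIs per nucleus were 1.29 in Themis-positive and 2.59 in matched nuclei of MASH replicate 1, and 0.962 and 1.61 in MASH replicate 2. Mean pericentral rule UMIs were 5.86 and 6.09 in the first library and 12.4 and 4.18 in the second. The 4 genes of the periportal list called lower were Gldc, Cps1, Arg1 and the midlobular marker Hamp, none of them used for the classes. All 20 tested had a negative value, with a median of -0.52. Of 20 tested pericentral genes outside the rule, 2 were called higher (Cyp2e1 and Slco1b2), none lower, and the median was 0.36 (0.25 in MASH replicate 1 and 0.53 in MASH replicate 2). Pairing within 5 finer steps of the zone markers, which was chosen after these values were seen, left medians of -0.39 and 0.24, and it called 56 genes of which 36 were among the 41. The part of the position in the lobule in the called genes was not tested beyond this.

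**Figure D3:**
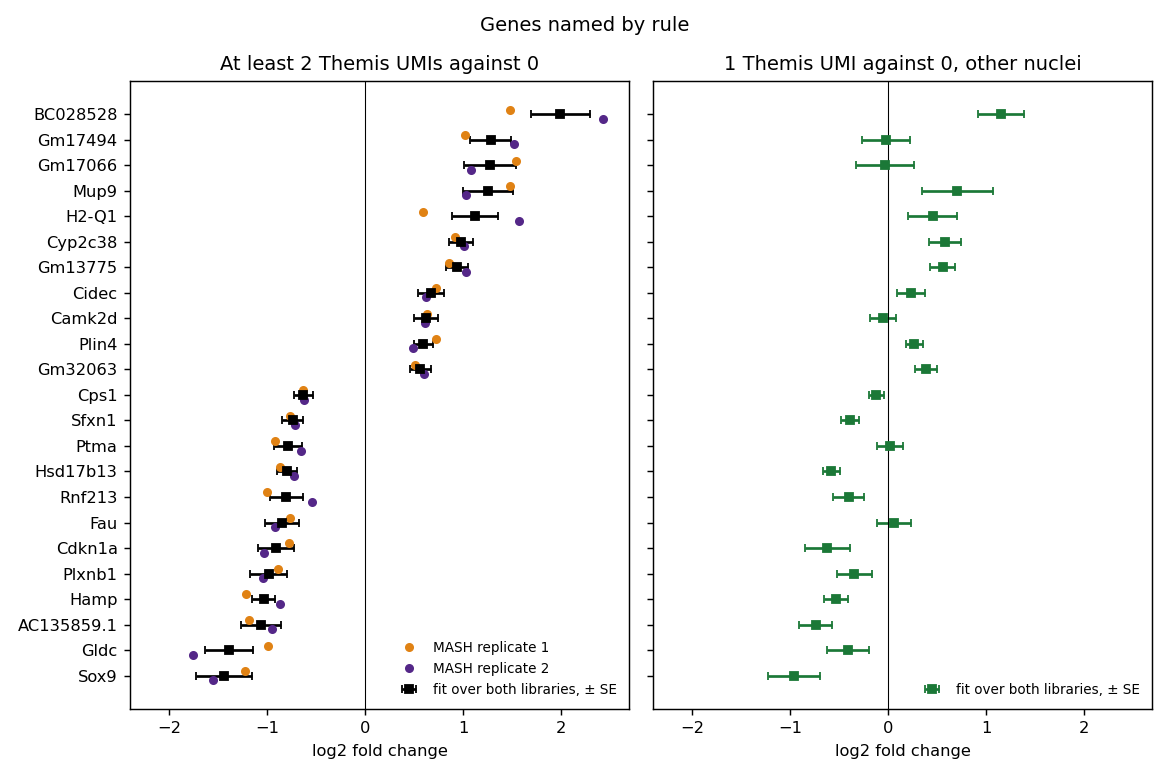
Log2 fold changes (horizontal axis) of 23 genes that the naming rule gave (vertical axis), in nuclei with at least 2 Themis UMIs (left) and in other nuclei with 1 Themis UMI (right), each against matched nuclei without Themis. Squares with bars are the fit over both MASH libraries ± SE, and circles, on the left only, are the values of each library. On the left the 2 libraries fall on the same side of 0 for each gene, which the call required. On the right Fau lies at 0.06 and Camk2d at -0.06.

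Of 22 tested secreted liver proteins, 2 were called lower and none higher, and the median was -0.16 (-0.09 in MASH replicate 1 and -0.20 in MASH replicate 2). They were Serpina1c (-0.59 ± 0.10, adjusted p = 0.0121) and Serpina1a (-0.50 ± 0.10, adjusted p = 0.0349), near-identical copies of alpha-1-antitrypsin whose reads may be divided between them. Alb had -0.22 ± 0.07 (adjusted p = 0.257) and Apoa1 -0.07 ± 0.07 (adjusted p = 0.864). At an unadjusted p under 0.05 in edgeR, 10 of the 22 were lower and none higher. Of 21 tested acute-phase genes none was called by edgeR or DESeq2, and the median was -0.23 (-0.08 in MASH replicate 1 and -0.41 in MASH replicate 2). In edgeR 2 had an unadjusted p under 0.05 with a higher and 7 with a lower value. Over all genes tested 8.82% had such a p in edgeR. C3, of the complement system, was at 317 against 384 and 231 against 359.8 CPM (-0.46 ± 0.10, adjusted p = 0.074).

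Cdkn1a, which encodes the cell cycle inhibitor p21, fell by 0.91 ± 0.19 on the log2 scale (adjusted p = 0.0349). It was at 45.4 CPM in Themis-positive and 78.3 in matched nuclei of MASH replicate 1, and at 33.6 and 69.5 in MASH replicate 2, and a UMI was seen in 18.5% against 24.5% and 15.9% against 31.9% of nuclei. In the matched nuclei of MASH replicate 1, 3 nuclei held 30 of its 86 UMIs. It was the only called gene among 21 tested p53 targets, whose median was -0.04. Of 41 genes in the study's senescence list, which is not independent of these samples, 14 were tested, 1 was called lower (Cdkn1a) and 1 higher, and the median was -0.30 (-0.28 in MASH replicate 1 and -0.0038 in MASH replicate 2). Mdm2, which restrains p53, had -0.06 ± 0.12 (adjusted p = 0.944).

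Markers of disease-associated hepatocytes did not pass the test. Among the 6 tested, 5 had a positive and 1 a negative fitted value. Their median was 0.16 (0.23 in MASH replicate 1 and 0.12 in MASH replicate 2). None of Nrg1, Anxa2, Gdf15, Sox4, Klf6 and Jun, which the study chose on these samples, was called with edgeR or DESeq2, and at an unadjusted p under 0.05 with edgeR there were Anxa2 with a higher and Klf6 with a lower value. Nrg1, a ligand of ERBB receptors, was at 279 CPM in Themis-positive and 183 in matched nuclei of MASH replicate 1, but at 165 and 188 in MASH replicate 2 (0.22 ± 0.14, adjusted p = 0.724). The libraries thus disagreed in sign for this gene. Anxa2, a membrane-binding annexin, was at 81.8 against 58.3 and 44.6 against 25.5 CPM (0.61 ± 0.20, adjusted p = 0.301). Gdf15, a stress hormone, had 0.11 ± 0.10 (adjusted p = 0.845), Klf6 -0.36 ± 0.11 (adjusted p = 0.257), Jun 0.10 ± 0.11 (adjusted p = 0.88) and Sox4 0.54 ± 0.40 (adjusted p = 0.782).

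Partners of THEMIS and the RAS-ERK pathway were not called either. Of 10 partners 5 were tested, and 1 of them had an unadjusted p under 0.05 with edgeR: Grb2 had -0.78 ± 0.30 (adjusted p = 0.444), Ptpn11, which encodes SHP2, 0.09 ± 0.24 (adjusted p = 0.961), and Ptpn6, which encodes SHP1, 0.33 ± 0.39 (adjusted p = 0.89). Of 19 tested genes of the RAS-ERK pathway and 11 tested ERK feedback genes and targets, edgeR and DESeq2 called none, with medians of -0.05 and 0.02. In edgeR 2 and 4 of them had an unadjusted p under 0.05, against 8.82% over all genes tested. The 4 were 2 higher and 2 lower. Dusp6, a phosphatase induced by ERK, had 0.31 ± 0.12 (adjusted p = 0.441) and Egfr -0.21 ± 0.14 (adjusted p = 0.723). Among the 5 nearest genes on each side of Themis 3 were tested, and none was called or had an unadjusted p under 0.05 with edgeR. The closest, Ptprk, ends 70963 bases before Themis on the same strand and was at 155 against 168 and 173 against 168 CPM (-0.03 ± 0.11, adjusted p = 0.976).

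**Figure D4:**
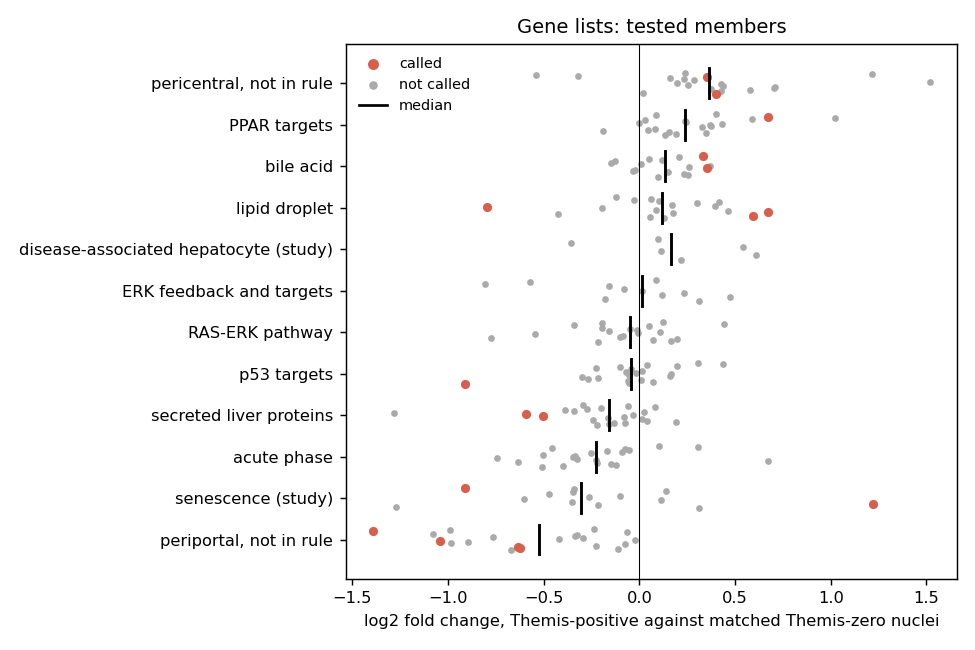
Log2 fold changes (horizontal axis) of the tested members of 12 gene lists (vertical axis) in Themis-positive against matched nuclei. Each point is a gene, red points were called and black bars are list medians. The periportal list lies wholly below 0 with a median of -0.52, and the disease-associated hepatocyte and ERK lists hold no called gene.

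Some of the large higher values came from few nuclei. BC028528 had a log2 fold change of 1.99 ± 0.30 (adjusted p = 0.00428), with 40 against 14 and 56 against 10 UMIs. Of these, 3 nuclei held 35 and 45 in the Themis-positive sums, and a UMI was seen in 3.8% against 2.17% and 3.85% against 3.3% of nuclei. Gm17494, a noncoding transcript that overlaps Gclm and Dnttip2 on the opposite strand, was likewise concentrated, with 42 of 76 and 39 of 89 UMIs in 3 nuclei and a UMI in 7.61% against 7.07% and 10.4% against 4.95% of nuclei.

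H2-Q1, a class I histocompatibility gene, had 1.12 ± 0.23 (adjusted p = 0.0398) and a UMI in 21.7% against 16.3% and 35.7% against 15.4% of nuclei, while none of 10 tested antigen presentation genes was called by edgeR (1 at an unadjusted p under 0.05) or DESeq2. Camk2d, a calcium-dependent kinase, had 0.62 ± 0.12 (adjusted p = 0.032), and Rgs16, which shortens G protein signals, 0.43 ± 0.08 (adjusted p = 0.032). Gm13775, a noncoding transcript overlapping the pseudogene Mup-ps16, and Mup9, a major urinary protein gene, had 0.93 ± 0.11 and 1.25 ± 0.25 (adjusted p = 0.000453 and 0.032), and reads of this gene cluster may be divided among copies. Gm32063 had 0.56 ± 0.11 and Gm17066, which overlaps Rbm26 on the same strand, 1.27 ± 0.27 (adjusted p = 0.0226 and 0.0409).

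The other genes of the lower set had varied roles. Sox9, a transcription factor of bile duct cells and of some periportal hepatocytes, was at 11.8 CPM in Themis-positive and 28.2 in matched nuclei of MASH replicate 1, and at 12.5 and 37.8 in MASH replicate 2 (-1.44 ± 0.29, adjusted p = 0.032). Beside it, the 12 cholangiocyte markers summed to 159 and 175 UMIs in Themis-positive and matched nuclei of the first library and to 285 and 334 in the second, mostly Spp1, with Krt19 and Krt7 at 0 in the Themis-positive nuclei of both. Macrophage markers summed to 185 and 237 UMIs in the first and 170 and 211 in the second library. In the 2 libraries 15 and 13 of the 17 had a UMI in Themis-positive and 16 and 14 in matched nuclei. Timd4 was at 0 in all 4 sums, and Marco in all but the matched nuclei of MASH replicate 1. The part of free RNA from these cells was not tested. Plxnb1, a semaphorin receptor, had -0.99 ± 0.19 (adjusted p = 0.0279), Rnf213, a large ubiquitin ligase, -0.81 ± 0.17 (adjusted p = 0.0398), Iigp1, an interferon-induced GTPase, -0.54 ± 0.11 (adjusted p = 0.032), and Fau, which encodes a ribosomal protein, -0.85 ± 0.18 (adjusted p = 0.0398). Ptma, prothymosin alpha, had -0.79 ± 0.14 and AC135859.1, whose position the annotation used here did not give, -1.07 ± 0.20 (adjusted p = 0.0146 and 0.0267). AC135859.1 varied with zone. In matched nuclei without Themis it was at 141 CPM in periportal-leaning and 22.6 in pericentral-leaning nuclei of MASH replicate 1. The same levels were 200 and 7.61 in MASH replicate 2. The remaining genes called lower were Gm49980 at -0.52, Gm29966 at -0.26 and 5330417C22Rik at -3.16. These 3 genes and Lpin2, Acaa1b, Aldh3a2, Cyp3a25, Rgs16, Uroc1 and Iigp1 above were called but not given by the naming rule, and were named after their values were seen.

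Nuclei with exactly 1 Themis UMI, which were no part of the comparison above, were set against their own matched nuclei without Themis, none of which was used above. All these nuclei came from the same 2 libraries. Zone markers were unequal here too. Mean pericentral rule UMIs were 3.19 in nuclei with 1 Themis UMI and 2.02 in matched nuclei of MASH replicate 1, and 4.04 and 2.54 in MASH replicate 2. Mean periportal rule UMIs were 1.97 and 2.51 in the first library and 1.40 and 1.75 in the second. The part of the position in the lobule was not tested. Of 9352 genes 17 were called higher (0.182%) and 14 lower (0.15%). Nr1i3 had 0.59 ± 0.07 (adjusted p = 4.23e-05), Cyp2e1 0.47 ± 0.06 (adjusted p = 0.000168), Cyp3a25 0.38 ± 0.06 (adjusted p = 0.00127) and Acaa1b 0.37 ± 0.05 (adjusted p = 0.00122). On the lower side Hsd17b13 had -0.58 ± 0.09 (adjusted p = 0.00167), Arg1 -0.39 ± 0.07 (adjusted p = 0.018) and C3 -0.40 ± 0.09 (adjusted p = 0.0453). Cidec had 0.23 ± 0.14 (adjusted p = 0.742), Plin4 0.27 ± 0.09 (adjusted p = 0.298), Cdkn1a -0.62 ± 0.23 (adjusted p = 0.44) and Cps1 -0.12 ± 0.08 (adjusted p = 0.788), none of which passed.

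Levels by Themis count, without matching, are given for all 2723 hepatocyte nuclei beside those of chow. Cyp2c38 was at 47.6, 108, 126, 164 and 174 CPM in nuclei of MASH replicate 1 with 0, 1, 2, 3 and 4 or more Themis UMIs, and at 75.2, 161, 187, 251 and 319 CPM in MASH replicate 2. It was at 69.8, 27 and 11.6 CPM in chow. Its level was higher in each class than in the one before it, in both libraries. Hamp was at 298, 150.1, 102, 61.4 and 41.2 CPM in the same classes of MASH replicate 1, at 254, 104, 112, 112 and 52.7 in those of MASH replicate 2 and at 879, 788 and 1286 CPM in chow. For Hamp the nuclei with most Themis lay farthest from the chow level.

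Hsd17b13, Cdkn1a and Cidec lay differently with respect to chow. Hsd17b13 was at 431 and 385 CPM in MASH nuclei without Themis, at 121 and 149 in those with 4 or more UMIs, and at 198, 132 and 70.0 in chow. Its level in the nuclei with most Themis was thus inside the range of the chow libraries. Cdkn1a was at 68.3 and 51.3 CPM without Themis, at 38.1 and 32.1 with 4 or more, and at 4.03, 17.8 and 23.7 in chow, with 58 and 38.6 in nuclei with 3, so its order over the classes was uneven. Cidec was at 61.7 and 83.6 without Themis, 111 and 139.9 with 4 or more, and 35.3, 24.6 and 13.1 in chow. These classes differ in depth and in zone, and no test was made on them.

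**Figure D5:**
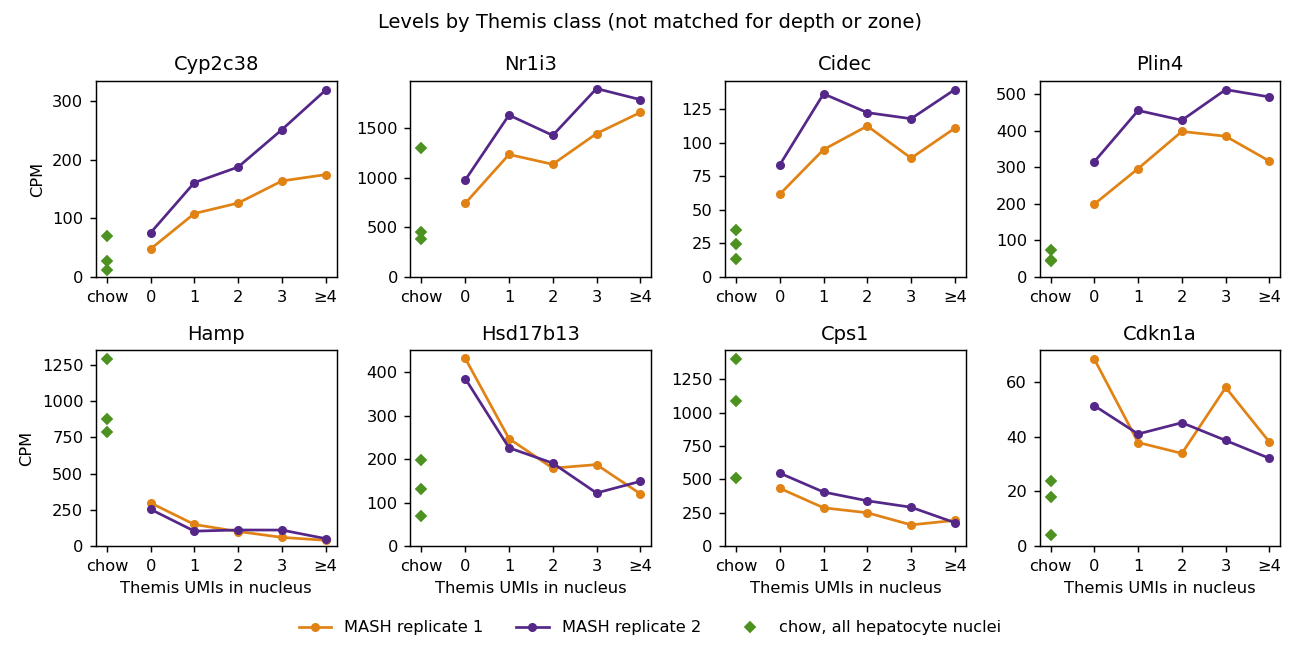
Levels (CPM, vertical axis) of 8 genes in hepatocyte nuclei of each MASH library by Themis UMIs per nucleus (horizontal axis) and in all hepatocyte nuclei of the 3 chow libraries (diamonds). Lines join the classes of 1 library, and the classes are not matched for depth or zone. Cyp2c38 is higher and Cps1 lower at 4 or more Themis UMIs than at 0 in both libraries, and Cdkn1a is uneven.

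Whether the differences depended on zone was asked with an interaction term over 8 sums. Of 7468 genes none was called (0%) by edgeR (379 had an unadjusted p under 0.05) or by DESeq2 (11 did). The lowest adjusted p was 0.269. Cyp2e1 had 0.26 ± 0.09 in pericentral-leaning and 0.90 ± 0.11 in periportal-leaning nuclei, a difference of -0.64 ± 0.14 (adjusted p = 0.269). Cidec had 0.24 ± 0.21 and 1.6 ± 0.32, a difference of -1.36 ± 0.39 (adjusted p = 0.541). Among periportal-leaning nuclei Cidec was at 115 CPM in Themis-positive and 26.6 in matched nuclei of MASH replicate 1 and at 104 and 47.6 in MASH replicate 2, and among pericentral-leaning nuclei at 104 and 82 and at 112 and 98.9. Arg1 had -1.30 ± 0.17 and -0.37 ± 0.14, a difference of -0.93 ± 0.22 (adjusted p = 0.326). These differences did not pass the test, and with 57 and 38 matched pairs in the periportal-leaning class the design does not show that the zones act alike.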

How the data were processed

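The authors sorted nuclei of frozen liver, made droplet-based 3-prime libraries and ran Cell Ranger 8.0.1 on GRCm38 without counting intronic reads, per the methods and the submitters' processing notes. The deposited matrices hold raw UMI counts of 32285 genes per barcode, with no cell types or doublet calls. No doublet caller was run; nuclei with UMIs of the 6 other-cell genes were excluded, and leaving out the 5% of nuclei with most UMIs is an alternative. Groups (2 MASH and 3 chow libraries) came from the labels.

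Members and gene lists were chosen with earlier results of these data known. Themis-positive nuclei were paired 1 to 1 with Themis-zero nuclei (same library and zone class, totals within 5%, random order with seed 1). Sums were tested, two-sided, with edgeR 4.0.16 (glmQLFTest, TMM, filterByExpr, Benjamini-Hochberg) in R 4.3.3, with the library as block since both sums come from the same library; DESeq2 1.42.0 was an alternative. Standard errors (SE) were derived by dividing each log2 fold change by the root of its F statistic. Levels are CPM of the UMIs summed, and for matched nuclei CPM on library sizes adjusted by TMM. The script was tested on simulated sums whose spread was set and not taken from these data. The main comparison recovered 54 of 100 genes changed 2-fold and 97 of 100 changed 4-fold, with 0 false calls. The zone interaction recovered 13 of 100 and 71 of 100, with 7 false calls. A gene that was not called may thus still differ. Of the genes, 99.8% were found in GENCODE M21 (GRCm38), which gave coordinates. Named genes were the 12 largest called changes in each direction at 20 CPM or more in the higher group with the same sign in both libraries and, where tested, both zone classes, members of the 35 lists and the neighbours of Themis; 1 gene that the rule gave is not reported here, and 10 called genes were added after their values were seen. Intervals and floors cover counting error only; sums held 1126670 to 1257041 UMIs.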

Additional observations from a re-analysis of the deposited data

Results flagged for a closer look

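1 result was picked out because its scaled values had opposite signs in the zone classes of both libraries. For 5330417C22Rik, the difference of the log2 fold change between pericentral-leaning and periportal-leaning nuclei was 6.69 (adjusted p = 0.854 by the edgeR interaction term, so it did not pass the test). In periportal-leaning nuclei it had 0 UMIs in the Themis-positive sums of both libraries and 9 and 10 in the matched sums, and in pericentral-leaning nuclei 1 and 2 in Themis-positive and 1 and 2 in matched sums. The pericentral-leaning counts were thus equal and show no direction, so a difference of direction between the zones was not shown. The fitted value against a count of 0 depends on the prior count and is no bound.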

How the results depend on the processing

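The 41 genes called in Themis-positive against matched nuclei became 0 with DESeq2, 0 with no filter other than 1 UMI (823 of 16580 genes at an unadjusted p under 0.05), 13 with library sizes alone and 12 with another random order of the pairing. They became 21 after thinning to 2000 UMIs, 92 with 2 comparison nuclei per member, 130 without the 5% of nuclei with most UMIs, 89 and 216 with members of at least 3 and at least 1 Themis UMIs, 149 with zone split at the median, 274 without matching of zone and 727 with no matching. Counts stayed within 1.5 times with Storey's q-values (42), at least 50 UMIs (57), a mitochondrial share under 5% (34) and the finer zone steps (56). Without the library as a replicate block, which pairs the sums, 0 genes were called (290 at an unadjusted p under 0.05), and 0 (188 at that p) in place of 31 for nuclei with 1 Themis UMI. Those 31 became 4 with DESeq2, 7 with library sizes alone, 0 with no filter and 53 at 50 UMIs or more. The zone interaction called 0 genes in all alternatives run. The shares in pericentral-leaning nuclei became 5.77% and 6.0% after thinning and those in periportal-leaning nuclei 1.71% and 1.04%, and the latter was 11.5% in MASH replicate 1 with zone split at the median. Cps1, Arg1, Hamp, Hsd17b13, Sfxn1, Uroc1 and Cyp2c38, named after their values were seen, were called in 14 of 17 alternatives. Leaving out 1 MASH library leaves no residual degree of freedom, so the values of each library stand without a test. The causes of these changes were not tested. Depth limits how many nuclei could be classed, since a nucleus with 0 Themis UMIs may hold Themis RNA.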

Other observations

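In nuclei with 1 Themis UMI against their matched nuclei, other genes were also called. Tmc6, a membrane protein gene, was 1.23 ± 0.23 higher on the log2 scale (adjusted p = 0.0164), Alas1, the first enzyme of haem synthesis, 0.39 ± 0.07 higher (adjusted p = 0.0155), and Cyp3a11, a cytochrome P450, 0.50 ± 0.08 higher (adjusted p = 0.004101). Hbb-bs, a haemoglobin gene, had -4.55 ± 0.30 (adjusted p = 4.99e-09), and Stra6l, a retinol transporter gene, -0.56 ± 0.10 (adjusted p = 0.0103). How many nuclei held the Hbb-bs UMIs is not given here, and the part of free RNA in its value was not tested. These genes were chosen after their values were seen.

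A fixed list of genes raised by the diet in hepatocytes held none that was called in Themis-positive nuclei, which does not cover diet-raised genes outside it. Of 10 listed from earlier results on these samples, 10 were tested and edgeR and DESeq2 called none (3 had an unadjusted p under 0.05 with edgeR). Mapt, which encodes tau, was at 50.9 CPM in Themis-positive and 79.2 in matched nuclei of MASH replicate 1 and at 59.4 and 83.4 in MASH replicate 2 (-0.56 ± 0.16, adjusted p = 0.238). Cyp2a22, a cytochrome P450 gene, was at 126 against 78.3 and 73.5 against 59.5 CPM (0.52 ± 0.15, adjusted p = 0.247).

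Of 15 tested clock genes, 15 tested cholesterol synthesis genes and 11 tested genes of the integrated stress response, edgeR and DESeq2 called none, with medians of 0.04, -0.09 and -0.05 and with 2, 0 and 1 at an unadjusted p under 0.05 in edgeR. Growth factor ligands and receptors (16 tested, median -0.02) and NRF2 and steroid genes (10 tested, median 0.07) held no gene called by either tool, with 1 and 3 at an unadjusted p under 0.05 in edgeR.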
